A study of Mus musculus with 56 samples.

Results

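The PPAR, LXR and RXR nuclear receptors of mouse visceral adipose tissue (VAT) are described here across 24 h and 2 feeding regimens. The members were the 8 genes Ppara, Ppard, Pparg, Nr1h3, Nr1h2, Rxra, Rxrb and Rxrg, chosen by symbol from the 25939 genes of the table. All 8 had reads in every library and a mean level of at least 1 CPM (reads scaled to library size). RNA was sequenced from the VAT of 56 female C57BL/6J mice aged 9 weeks. For 7 days the mice had been fed in the daytime (daytime-restricted feeding, DRF) or at night (nighttime-restricted feeding, NRF, the reference), under 12 h of light and 12 h of dark. Every 4 h from ZT0 to ZT24 (zeitgeber time, hours after lights on) the VAT of 4 mice per regimen was collected, which gave 28 libraries per regimen and 14 groups of different mice. The animals carried no transgene or drug by their labels, and only female mice of a single strain on chow were sampled.

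These receptors are transcription factors that a fatty ligand switches on. PPARs sense fatty acids and their derivatives, LXRs sense oxidised cholesterol, and each binds DNA as a pair with an RXR. PPARγ drives the formation and lipid storage of adipocytes, PPARα drives fatty acid oxidation where it is abundant, and LXRs drive cholesterol export and lipid synthesis. A receptor without ligand can hold corepressors at its targets, and ligand exchanges them for coactivators.

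Reads on genes ranged from 31391663 to 41396551 per library. The adipocyte markers Adipoq, Plin1, Cidec, Lep, Lipe and Fabp4 had reads in every library, with a summed level of 15670 to 26780 CPM under NRF. A pair of DRF libraries stood apart: their adipocyte sum was 13610 CPM in DRF ZT0 replicate 4 and 8747 CPM in DRF ZT8 replicate 1, against 15950 to 31090 CPM in the other DRF libraries. Their sum over 6 uterine epithelium markers was 5077 and 419.2 CPM, against 9.939 to 87.36 CPM in the other DRF libraries and 12.42 to 44.98 CPM under NRF. In DRF ZT8 replicate 1, 7 of the 8 receptors lay below all 3 other mice of its group, and in DRF ZT0 replicate 4 it was 6 of 8. Rxrb was an exception in both. Liver markers, with a median sum of 24.5 CPM under NRF, reached 1539 CPM in 1 NRF library. What part the pair had in the spread was not tested, and results that turn on it are given with and without it. In bulk tissue, fewer cells of a type and less RNA per cell cannot be told apart.

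The genes lie on several chromosomes of GRCm38, by the reference annotation. Ppara (ENSMUSG00000022383) is at chr15:85734983-85802819 and Ppard (ENSMUSG00000002250) at chr17:28232700-28301474, both on the + strand. Pparg (ENSMUSG00000000440) is at chr6:115360951-115490399 on the + strand. The LXR genes are both on the - strand, Nr1h3 (ENSMUSG00000002108, LXRα) at chr2:91184061-91202834 and Nr1h2 (ENSMUSG00000060601, LXRβ) at chr7:44549616-44553951. The RXR genes are on the + strand, Rxra (ENSMUSG00000015846) at chr2:27676440-27762957, Rxrb (ENSMUSG00000039656) at chr17:34031812-34038399 and Rxrg (ENSMUSG00000015843) at chr1:167598384-167639623. Exons of 7 members overlapped no exon of another annotated gene, and 34 bases (1.35%) of the Nr1h3 exons were shared with Gm13783. Counts were per gene, so the Pparg value pools the starts that give PPARγ1 and PPARγ2.

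The 250 bases before the RefSeq start sites (GRCm38.p6) are shown for 4 members whose 24-h patterns the results turn on: Ppara (chr15:85735526-85735775, + strand), Nr1h2 (chr7:44553966-44554215, - strand) and Rxrb (chr17:34031562-34031811, + strand), which peaked near the same hour under NRF, and Ppard (chr17:28232504-28232753, + strand), which peaked about 10 h away. Capitals mark matches, on either strand, to CCGGAAG (the core of ETS factor sites), GCATGCGC (the core of sites of nuclear respiratory factor 1) or CCAAT.
Ppara: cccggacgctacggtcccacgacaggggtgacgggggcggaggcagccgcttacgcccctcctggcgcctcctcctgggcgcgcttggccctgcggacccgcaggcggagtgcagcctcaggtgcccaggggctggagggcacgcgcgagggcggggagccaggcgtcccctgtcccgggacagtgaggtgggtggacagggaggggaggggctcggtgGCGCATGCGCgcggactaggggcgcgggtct
Nr1h2: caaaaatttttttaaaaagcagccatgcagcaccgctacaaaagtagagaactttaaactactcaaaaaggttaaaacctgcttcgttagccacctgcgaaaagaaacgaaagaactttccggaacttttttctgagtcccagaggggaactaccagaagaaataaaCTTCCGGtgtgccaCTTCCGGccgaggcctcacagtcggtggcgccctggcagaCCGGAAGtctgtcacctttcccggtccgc
Rxrb: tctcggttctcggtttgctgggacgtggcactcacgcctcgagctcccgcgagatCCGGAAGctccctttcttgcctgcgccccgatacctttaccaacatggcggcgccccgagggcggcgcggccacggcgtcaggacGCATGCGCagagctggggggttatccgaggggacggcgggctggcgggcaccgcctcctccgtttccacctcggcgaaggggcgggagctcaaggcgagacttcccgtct
Ppard: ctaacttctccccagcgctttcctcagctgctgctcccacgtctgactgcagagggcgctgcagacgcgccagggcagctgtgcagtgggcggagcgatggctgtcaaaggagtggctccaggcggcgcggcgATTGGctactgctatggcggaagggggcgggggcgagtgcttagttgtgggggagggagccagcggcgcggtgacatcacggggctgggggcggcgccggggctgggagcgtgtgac
The Nr1h2 window holds CCGGAAG 3 times, and the Rxrb window shown once. A second Rxrb start site (chr17:34032100-34032349, + strand) has neither CCGGAAG nor GCATGCGC in its window. GCATGCGC occurs in the windows of Ppara, where 2 matches on opposite strands overlap, and of Rxrb. Over the 14 windows of the 8 members, some of which overlap, CCGGAAG occurred in 2 and GCATGCGC in 2, against 6.91% and 2.26% of all 32851 windows of this length. CCAAT was in 4 of the 14 windows, against 33.8% of all windows. AGGTCA, the element that these receptors read, was in 4 (Pparg in 2 windows, Rxra and Rxrg), against 4607 of all 32851 windows, and no window held 2 copies in a row spaced by 1 base (DR1) or by 4 bases (DR4), which 0.0335% and 0.0152% of all windows hold. The E-box CACGTG, the D-box TTANGTAA and the cAMP element TGACGTCA were in 0 of the 14, against 6.02%, 2.06% and 1.55% of all windows. The GC box GGGCGG was in 7 of the 14, against 32.7% of all windows. The share of G and C was 76.4% in the Ppara window, 48.4% in that of Nr1h2, 69.2% in that of Rxrb and 69.6% in that of Ppard. Its median over all windows was 52.4%, and the shares of motifs were not matched for it. These motifs were chosen after the sequences were seen.

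Per exon length, Pparg was the most abundant receptor and Ppara the least. The mean level in RPKM (CPM per kb of exon, over 56 libraries) was 76.5 ± 14.6 (SD) for Pparg, 45.0 ± 7.83 for Nr1h3, 36.3 ± 6.09 for Rxra and 21.2 ± 2.56 for Nr1h2. Rxrb had 11.3 ± 1.22, Rxrg 6.18 ± 1.48, Ppard 5.66 ± 1.15 and Ppara 1.71 ± 0.786 RPKM. This order held in all 56 libraries for 5 of the 7 neighbouring pairs. Nr1h3 was above Rxra in 51 of 56 libraries, and Rxrg above Ppard in 36 of 56, so that the latter 2 overlapped across their range. The Rxrb level rests on a length of 3698 bases taken from the deposited values, against 3973 in the annotation.

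**Figure D1:**
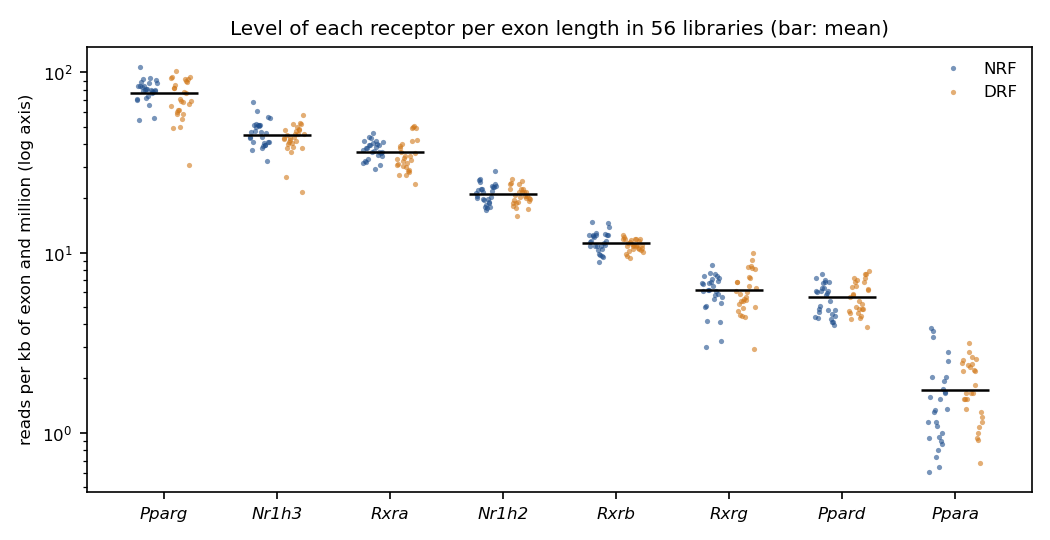
Level of the 8 receptors per exon length (RPKM, log axis) in the 56 libraries, NRF in blue, DRF in orange, with a bar at the mean. Pparg lies at 76.5 RPKM and Ppara at 1.71 RPKM, and the points of Rxrg and Ppard overlap.

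Within each family a single gene made most of the RNA. Pparg made 91.0% ± 1.78 (SD, n = 56) of the summed PPAR RPKM, with a range of 86.3% to 93.9% over libraries, whereas Ppard made 6.92% ± 1.60 and Ppara 2.10% ± 0.977. The Ppara share was 1.03% ± 0.0499 in the 4 mice at DRF ZT4 and 3.84% ± 0.573 at DRF ZT16. Rxra made 67.2% ± 3.58 of the RXR sum, from 62.1% ± 3.31 at DRF ZT24 to 71.0% ± 0.865 at DRF ZT12. Nr1h3 made 67.7% ± 4.53 of the LXR sum. The share of Nr1h2 was 26.3% ± 0.958 at NRF ZT20 and 36.2% ± 3.74 at NRF ZT4. These shares are given without a test.

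To see which receptors followed a daily rhythm, each regimen was tested on its own with a MetaCycle-type test at a period of 24 h, on the deposited values of 28 libraries. Under NRF 7 of the 8 receptors were rhythmic at an adjusted p under 0.05, against 25.4% of all genes, and Rxra was not (adjusted p = 0.378). This NRF count was 4 to 6 with a replicate number left out, lowest without number 2. Under DRF 3 of 8 were rhythmic, Ppara, Nr1h2 and Rxrg, against 11.9% of all genes. The same 3 were rhythmic under both regimens, against 7.3% of all genes. The DRF count depended on the method and the libraries: it was 6 with limma and 5 on log2(CPM + 1), 5 without the pair of libraries that stood apart, 1 without the ZT24 mice and 0 to 2 with a replicate number left out. At a period of 12 h this test called 0 receptors and 0 of all genes after adjustment. At an unadjusted threshold of 0.05, Nr1h3 passed under NRF and Ppard under DRF, beside 318 and 1705 of 25939 genes.

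**Figure D2:**
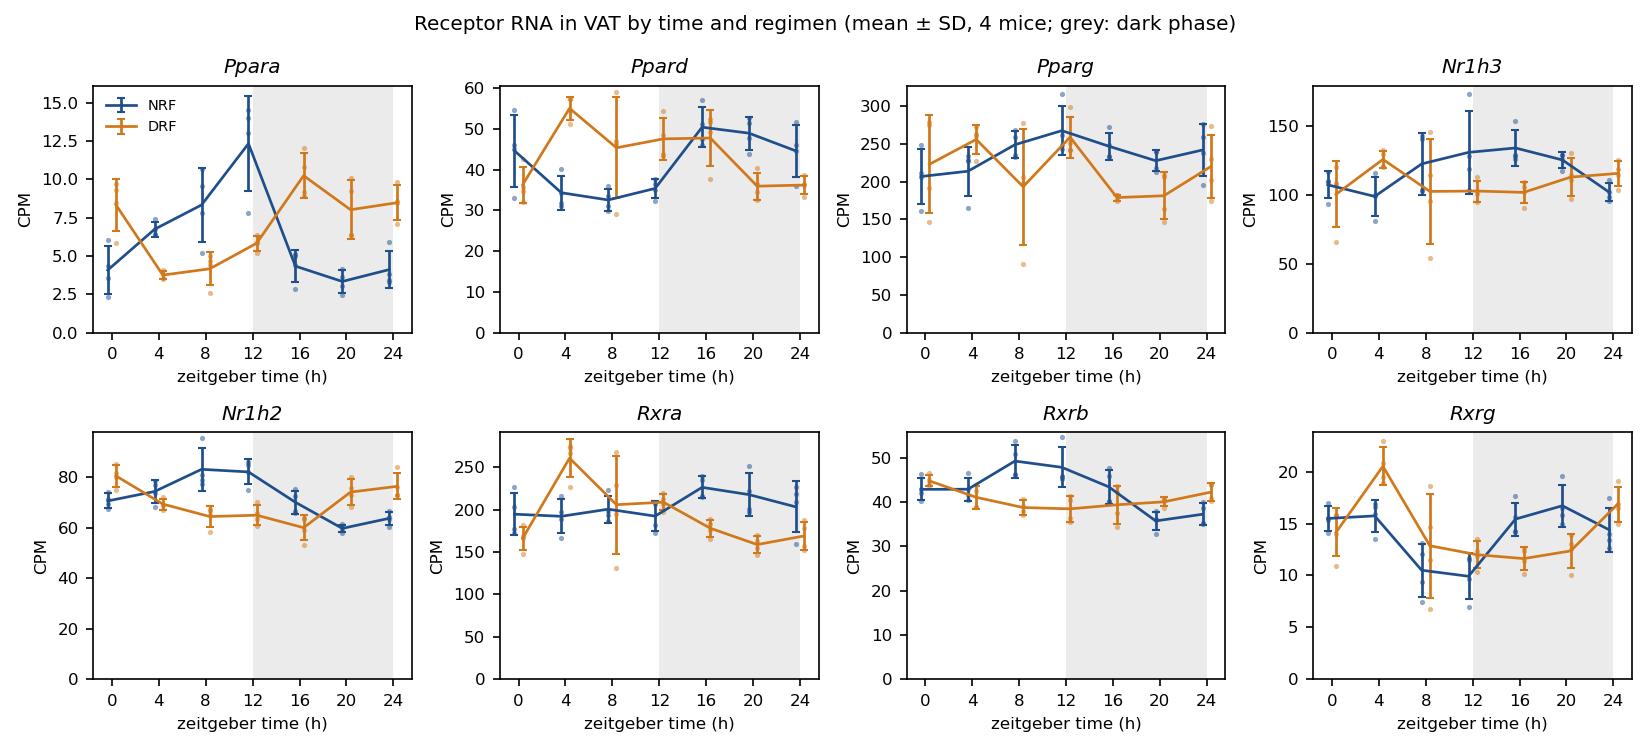
CPM of the 8 receptors against zeitgeber time (h) under NRF (blue) and DRF (orange), with points for single mice, lines through the means and bars of 1 SD (4 mice per group). The grey field is the dark phase. The Ppara curves cross, with means of 12.3 CPM at NRF ZT12 and 10.2 CPM at DRF ZT16.

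Regimens were then compared in a single limma fit on log2(CPM + 1), with a 24-h cosine and sine for each regimen. The rhythm differed at equal clock time for 7 of the 8 receptors, all but Pparg, against 36.0% of all genes. When the DRF time axis was turned by 12 h, so that mice were compared at equal feeding time, 4 of 8 differed (Ppara, Nr1h2, Rxrb and Rxrg), against 14.9% of all genes. With 1 mouse fewer in each group this count was 4 without replicate number 1, 0 without number 2 and 1 (Rxrg) without number 3 or number 4. Among the 14302 genes with a mean of at least 1 CPM, as all 8 receptors have, the shares were higher, 56.3% at equal clock time and 27.5% at equal feeding time, and 45.2% and 23.2% for the rhythm under NRF and DRF. In the CircaCompare model, which fits a mean, an amplitude and a peak time to each regimen, the peak time differed for 7 of 8, again all but Pparg, against 42.5% of all genes. It was 8 of 8 without the pair or on linear CPM, where Pparg passed, and 6 of 8 on the deposited values, without the ZT24 mice or without replicate number 3, where Nr1h3 did not. This test of the peak time does not ask for a rhythm in both regimens. By limma Rxra had no called rhythm under NRF (adjusted p = 0.34) and Nr1h3 none under DRF (0.591). The shifts of these receptors are thus ill defined. The amplitude differed for 0 of 8 after adjustment. At an unadjusted threshold of 0.05, Rxra and Rxrb passed. Over the 5 receptors that limma called rhythmic under both regimens, the median shift was 9.09 h, beside 9.94 h over the 4442 genes with rhythms under both, 73.4% of which shifted by 8 h or more.

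**Figure D3:**
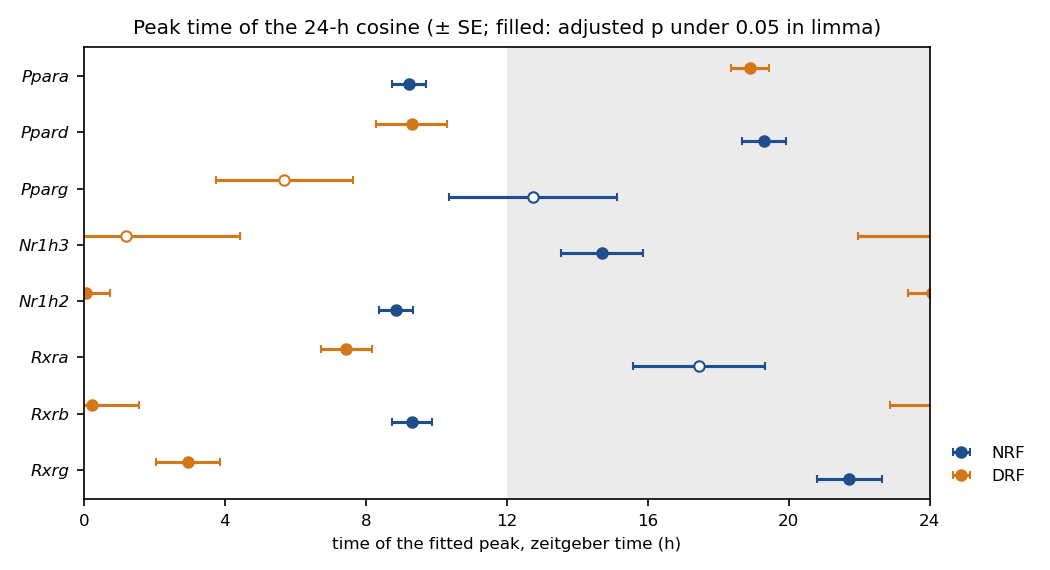
Fitted peak time of each receptor in zeitgeber time (h) under NRF (blue) and DRF (orange), with bars of 1 SE and filled points where limma called the rhythm. Ppara lies at ZT9.22 and ZT18.9 and Rxrg, with the closest pair of points, at ZT21.7 and ZT2.94.

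Ppara, the receptor best known for the response to fasting in liver, had the widest daily range of the 8. Under NRF the mice at ZT12 had 14.5, 7.77, 13.02 and 13.99 CPM, and those at ZT20 had 4.15, 3.07, 2.48 and 3.64 CPM. Under DRF the high point was at ZT16, with 9.16, 10.8, 12.1 and 8.93 CPM, and the low point at ZT4, with 3.58, 3.51, 3.81 and 4.11 CPM. High and low groups did not overlap in either regimen. The fitted peak was at ZT9.22 ± 0.492 (SE) under NRF, 2.68-fold above the trough on the CPM + 1 scale, and at ZT18.9 ± 0.542 under DRF, with a ratio of 2.32. The rhythm passed under both regimens (adjusted p = 0.000464 and 0.0053, MetaCycle-type test), and the DRF call was lost without replicate number 2 or 3. The DRF peak was 9.67 ± 0.732 h later (adjusted p = 2.84e-16, CircaCompare), with a 95% interval of 8.20 to 11.1 h that ended below 12 h. By limma the rhythms differed at equal clock time (adjusted p = 8.46e-11) and at equal feeding time (adjusted p = 0.0397). The mean level did not pass (log2 difference of DRF minus NRF 0.12 ± 0.09, adjusted p = 0.41).

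Ppara was also the member called at all 7 time points, and at 6 without replicate number 2 or 3. In limma over the 14 groups, it was higher under DRF at ZT0 (log2 difference 0.91), ZT16 (1.09), ZT20 (1.05) and ZT24 (0.91) and lower at ZT4 (-0.70), ZT8 (-0.84) and ZT12 (-0.93), with adjusted p from 0.000189 to 0.00974. At ZT0 the regimens overlapped through the DRF library of the pair, at 5.87 CPM, and at the other 6 time points they did not. Its reads numbered only 90 to 574 per library, the fewest of the 8.

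Ppard, a widely expressed PPAR linked to fatty acid use, ran the other way. Under NRF the low mice were at ZT8, with 31.0, 29.8, 33.6 and 35.9 CPM, and the high ones at ZT16, with 46.2, 57.0, 47.5 and 51.1 CPM. Under DRF the mice at ZT4 were the highest, at 51.2, 54.5, 57.3 and 57.3 CPM, and those at ZT20 had 34.5, 36.4, 40.4 and 32.6 CPM. In both regimens the high group lay wholly above the low group. The fitted peak was at ZT19.3 ± 0.621 under NRF and ZT9.30 ± 1.02 under DRF, a shift of 9.99 h (adjusted p = 4.88e-10, CircaCompare), with a 95% interval of -12.4 to -7.60 h for DRF minus NRF. The limma fit separated the rhythms at equal clock time (adjusted p = 1.53e-06) and not at equal feeding time (adjusted p = 0.268). The MetaCycle-type test called the rhythm under NRF (adjusted p = 0.00351, lost without replicate number 2). It did not call the rhythm under DRF (0.221), which passed without the pair of libraries (0.0363). By time point Ppard was higher under DRF at ZT4 (log2 difference 0.67), ZT8 (0.43) and ZT12 (0.41) and lower at ZT20 (-0.44), calls that fell to 1 without replicate number 2, 3 or 4. The mean level passed only without the pair, at a log2 difference of 0.15 (adjusted p = 0.0192 against 0.221 with all libraries, limma).

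Pparg, the receptor that makes and maintains adipocytes, had no rhythm that both the MetaCycle-type test and limma called with all libraries. Its group means ran from 179 ± 3.94 CPM at DRF ZT16 to 267 ± 32.9 CPM at NRF ZT12. Single mice ranged from 161 to 315 CPM under NRF and from 90.8 to 299 CPM under DRF, the lowest being DRF ZT8 replicate 1. Each of the 13 neighbours in the order of its group means lay within 1 SD of the next. The NRF rhythm passed narrowly (adjusted p = 0.0477, MetaCycle-type test; lost without replicate number 1, 2 or 4) and was not called by limma (0.338), and the DRF rhythm gave an adjusted p of 1 and 0.389. Without the pair of libraries limma called the DRF rhythm (adjusted p = 0.00351), and the MetaCycle-type test did not (0.201). No time point was called at the main settings, ZT16 was called without the pair, and 2 were called with libraries scaled to total reads. At ZT16 the DRF mice, at 177, 174, 182 and 182 CPM, lay below all NRF mice, at 233, 272, 248 and 234 CPM (log2 difference -0.46, adjusted p = 0.124 with all libraries, limma). The rhythms at equal clock time did not pass with all libraries (adjusted p = 0.26) and passed without the pair (0.00841), as they did at equal feeding time (0.526 and 0.0394). The shift in peak time likewise passed only without the pair (adjusted p = 0.00356 against 0.0601, CircaCompare) or on linear CPM (0.0317). The log2 mean difference was -0.18 ± 0.08 (adjusted p = 0.0973, limma), and -0.10 without the pair (0.190). With libraries scaled to total reads it was -0.23 and passed (0.0094).

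The oxysterol receptors differed from each other in how tightly they varied. Nr1h2 (LXRβ), expressed in most tissues, had a median coefficient of variation of 6.12% within groups. Under NRF it was highest at ZT8, with 77.2, 95.6, 80.8 and 78.9 CPM, and lowest at ZT20, with 60.4, 57.9, 61.4 and 59.2 CPM. Under DRF the mice at ZT0 had 75.1, 80.1, 81.5 and 85.3 CPM and those at ZT16 had 59.1, 63.6, 53.2 and 64.0 CPM. These high and low groups did not overlap. The fitted peak moved from ZT8.85 ± 0.488 to ZT0.065 ± 0.676, that is 8.79 ± 0.834 h (adjusted p = 5.65e-13, CircaCompare), with a 95% interval of -10.5 to -7.11 h for DRF minus NRF. Both rhythms passed (adjusted p = 0.000105 and 0.0443, MetaCycle-type test), but the DRF call was lost without the ZT24 mice and without each of the 4 replicate numbers. The limma fit separated them at equal clock time (adjusted p = 4.62e-10) and at equal feeding time (0.0168). The ratio of peak to trough was small, 1.35 under NRF and 1.26 under DRF.

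Nr1h2 was lower under DRF at ZT8, ZT12 and ZT16 (log2 differences -0.36, -0.33 and -0.22) and higher at ZT20 and ZT24 (0.30 and 0.26), all called by limma. These 5 calls fell to 3 without replicate number 2 and to 4 without number 3. The mean level of Nr1h2 fell by 0.08 on the log2 scale under DRF (adjusted p = 0.0289, limma), a ratio of 0.944. Rxrb was the other receptor whose mean difference was called, also lower under DRF. These 2 of 8 compare with 21.7% of all genes called in either direction (37.8% of genes with at least 1 CPM) and 10.3% called lower under DRF. Both calls were lost when replicate number 1 or 3 was left out, and the Nr1h2 call without number 2. With libraries scaled to total reads 5 of 8 were called, all lower under DRF, beside 22.0% of all genes in either direction. Macrophage markers moved the same way: 4 of 6 were lower under DRF, and their sum was 333.1 to 589.2 CPM (median 479.2) under NRF and 312.4 to 527.3 CPM (median 385.4) under DRF without the pair. Progenitor markers did too, with 3 of 5 lower, and mesothelial markers, with 2 of 4 lower. Adipocyte markers went both ways, with 1 of 6 means called higher and 1 lower. Their median sum was 20300 CPM under NRF and 23870 CPM under DRF without the pair. For endothelial markers it was 766.6 and 852.6 CPM, with 1 of 5 means called lower. The part of these cell types in the receptor levels was not tested.

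Nr1h3 (LXRα), abundant in adipocytes and macrophages, gave weaker evidence of a rhythm. Under NRF the ZT16 mice had 129, 126, 154 and 128 CPM and the ZT4 mice 99.8, 99.3, 116 and 80.9 CPM, without overlap. Under DRF the group means lay between 100.5 ± 23.96 CPM at ZT0 and 126 ± 6.00 CPM at ZT4. Library DRF ZT8 replicate 1 had 54.4 CPM and DRF ZT0 replicate 4 had 65.6 CPM, the lowest values of all. The rhythm passed under NRF (adjusted p = 0.0137, peak at ZT14.7 ± 1.16) and not under DRF (0.846), with the NRF call lost without the ZT24 mice or replicate number 1 or 3. The DRF peak time had an SE of 3.24 h. Rhythms differed at equal clock time (adjusted p = 0.0207, limma; 3.77e-05 without the pair) and not at equal feeding time (0.508). The call at equal clock time was lost without the ZT24 mice (0.0999), without replicate number 2 (0.0559) and without number 3 (0.147). No time point passed at the main settings, ZT4 and ZT16 passed without the pair, and 1 passed with libraries scaled to total reads. The mean difference was -0.15 ± 0.06 (adjusted p = 0.0995, limma), and -0.08 without the pair (0.197). With libraries scaled to total reads it was -0.19 and passed (0.00449).

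Rxra, the common partner of PPARs and LXRs in fat, had no clear rhythm under NRF and a sharp morning level under DRF. NRF group means stayed between 192 ± 20.3 CPM at ZT4 and 226.5 ± 12.9 CPM at ZT16. The DRF mice at ZT4 had 227, 268, 273 and 276 CPM and those at ZT20 had 146, 163, 170 and 155 CPM, without overlap. At ZT4 they also lay above all NRF mice, which had 189, 216, 197 and 167 CPM (log2 difference 0.44, adjusted p = 0.00856), and at ZT20 below all of them, at 198, 222, 252 and 200 CPM (-0.45, adjusted p = 0.00975, limma). No other time point was called at the main settings. ZT16 was also called without the pair, and the count of 2 was 3 with the replicate block and 4 with libraries scaled to total reads. That count fell to 1 without replicate number 2, 3 or 4. The rhythm did not pass under NRF (adjusted p = 0.378) or DRF (0.0952) in the MetaCycle-type test, but under DRF it passed without the pair (0.00989) and in limma with all libraries (0.000569). The peak was at ZT7.44 ± 0.723 under DRF and at ZT17.4 ± 1.87 under NRF, where the amplitude of 0.10 ± 0.06 log2 units leaves the peak ill defined. Rhythms differed at equal clock time (adjusted p = 0.000727, limma), and at equal feeding time only without the pair (0.00755 against 0.183) or with libraries scaled to total reads (0.00644).

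Rxrb, the RXR of most cell types, followed Nr1h2 closely. The correlation of their 14 group means of log2(CPM + 1) was r = 0.901, the highest among the 28 pairs of receptors, and both are read from the same libraries. Under NRF Rxrb had 46.1, 53.8, 46.4 and 50.9 CPM at ZT8 and 38.01, 32.9, 36.3 and 35.9 CPM at ZT20, without overlap. DRF values were flatter, from 38.5 ± 2.90 CPM at ZT12 to 44.8 ± 1.25 CPM at ZT0. The fitted peak was at ZT9.31 ± 0.565 under NRF and ZT0.22 ± 1.35 under DRF, 9.09 ± 1.47 h apart (adjusted p = 7.37e-07, CircaCompare). The rhythm passed under NRF (adjusted p = 0.0027) and not under DRF (0.906, MetaCycle-type test), where limma gave 0.0436, and 0.0686 without the pair. Amplitudes were 0.19 ± 0.03 and 0.09 ± 0.03 log2 units, a difference that did not pass over all genes (adjusted p = 0.171). By limma the rhythms differed at equal clock time (adjusted p = 1.13e-06) and narrowly at equal feeding time (0.0384). The latter call was lost in limma-voom (0.0551), without the ZT24 mice (0.0856) and without replicate number 2 (0.211), 3 (0.163) or 4 (0.154). It was lower under DRF at ZT8 (log2 difference -0.34) and ZT12 (-0.31), and the mean fell by 0.10 (adjusted p = 0.0119).

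Rxrg, the RXR of restricted expression, known from muscle and brain, shifted least and was the only member whose component at fixed clock time was the larger. Under NRF the ZT20 mice had 15.8, 19.6, 16.5 and 14.9 CPM and the ZT12 mice 11.5, 6.90, 11.6 and 9.63 CPM. Under DRF the ZT4 mice had 19.4, 18.9, 20.8 and 23.0 CPM and the ZT16 mice 10.2, 11.3, 12.4 and 12.6 CPM. Both contrasts were without overlap. The peak moved from ZT21.7 ± 0.914 to ZT2.94 ± 0.909, a shift of 5.22 ± 1.29 h (adjusted p = 0.000687, CircaCompare) with a 95% interval of 2.63 to 7.81 h. Rhythms passed under both regimens (adjusted p = 0.00886 and 0.0101, MetaCycle-type test), with peak-to-trough ratios of 1.55 and 1.54. The NRF call was lost without replicate number 2 or 3, and the DRF call without the ZT24 mice or without number 2, 3 or 4. They differed at equal feeding time (adjusted p = 0.00095, limma) and at equal clock time (0.00988). Without replicate number 2 both calls were lost (0.0566 and 0.0617), and without number 3 the call at equal clock time (0.154). No time point passed at the main settings, ZT4, ZT8 and ZT20 passed without the pair, and 1 passed with libraries scaled to total reads.

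The 24-h vectors of the 2 regimens can be split into a component that turned by 12 h with the feeding window and a component that stayed at the same clock time. The turned component was the larger in 7 of 8 receptors, as it was in 73.8% of the 9068 genes with a mean of at least 1 CPM and a rhythm in either regimen. Its amplitude in log2 units was 0.63 ± 0.07 for Ppara, 0.27 ± 0.04 for Ppard, 0.18 ± 0.02 for Nr1h2, 0.18 ± 0.04 for Rxra, 0.15 ± 0.05 for Nr1h3, 0.13 ± 0.02 for Rxrb and 0.11 ± 0.06 for Pparg. The component at fixed clock time was 0.20 ± 0.06 for Ppara and between 0.07 and 0.09 for the other 6. Rxrg had 0.20 ± 0.06 turned and 0.24 ± 0.05 fixed, which lie within 1 SE of each other. So do those of Pparg, 0.11 ± 0.06 turned and 0.09 ± 0.06 fixed. For Ppara the turned component was 3.07-fold the fixed one.

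**Figure D4:**
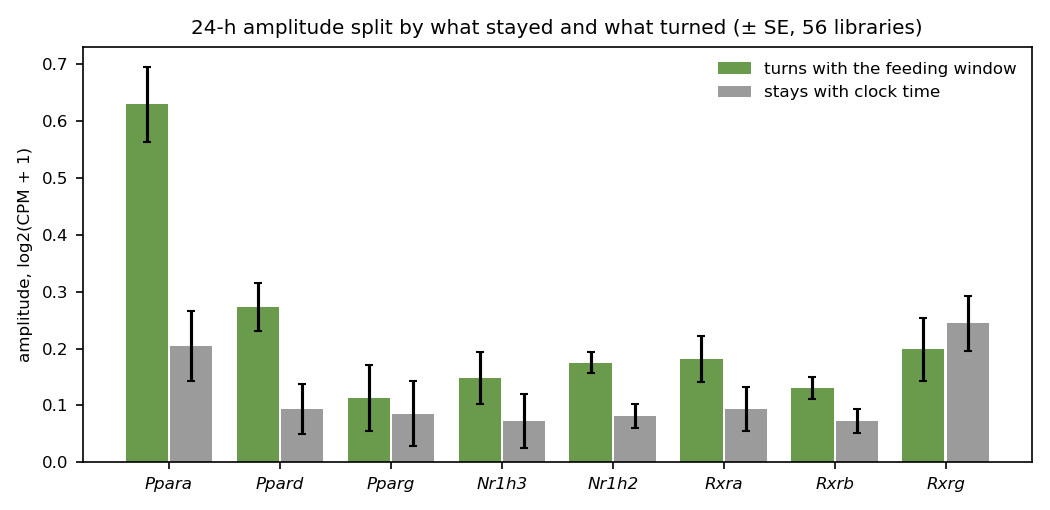
Amplitude in log2(CPM + 1) of the 24-h component that turned by 12 h between regimens (green) and of the component that stayed at clock time (grey), with bars of 1 SE over 56 libraries. Ppara has the tallest green bar, 0.63, and Rxrg alone a grey bar, 0.24, above its green one.

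Over all time points, 20 of the 56 receptor and time point pairs differed between regimens by limma, against 13.9% of such pairs over all genes. Among genes with at least 1 CPM it was 25.9%, and 22 of the 56. Ppara accounted for 7 of them, Nr1h2 for 5, Ppard for 4, and Rxra and Rxrb for 2 each. Without the pair of libraries the count was 27, with libraries scaled to total reads 28, and without replicate number 2 it was 13.

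**Figure D5:**
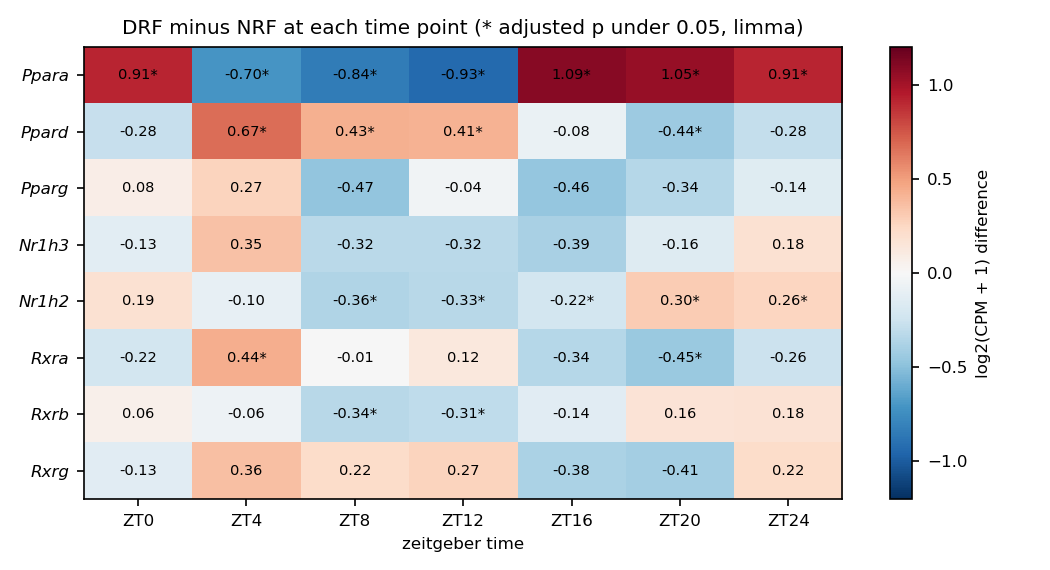
Difference of DRF minus NRF in log2(CPM + 1) for each receptor (rows) at each time point (columns), red where DRF was higher and blue where it was lower, with an asterisk at an adjusted p under 0.05 in limma. Ppara has asterisks in all 7 columns, with values from -0.93 to 1.09.

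Among the 28 pairs of receptors, the 14 group means of log2(CPM + 1) also ran in opposite directions. Ppara had r = -0.68 with Ppard, -0.66 with Rxra and -0.62 with Rxrg, and 0.56 with both Nr1h2 and Rxrb. Ppard had r = -0.78 with Nr1h2 and 0.69 with Rxra. Pparg reached 0.59 with Rxra and 0.56 with Nr1h3. The gene most like each member over the same 14 means, among 14302 genes with a mean of at least 1 CPM, was Pcgf5 for Ppara (r = 0.954), Ptger3 for Ppard (0.976), Rreb1 for Pparg (0.855), Sephs2 for Nr1h3 (0.930), Ctf1 for Nr1h2 (0.971), Mbp for Rxra (0.927), Gm28156 for Rxrb (0.944) and Macrod2 for Rxrg (0.933). Points of each pair share libraries, and no test was made.

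Genes of the proteins that receptors recruit were set beside the members. Of 11 coactivators, 5 had a rhythm that differed at equal clock time and 4 at equal feeding time (limma), that is 45.5% and 36.4% against 36.0% and 14.9% of all genes, and 56.3% and 27.5% of genes with at least 1 CPM. Of 7 corepressors 5 and 5 differed (71.4% for each test). Ncor1, the corepressor scaffold that binds receptors without ligand, peaked at ZT9.43 ± 0.797 under NRF and ZT20.4 ± 0.335 under DRF, within 2 h of the peaks of Ppara (adjusted p = 2.47e-12 at equal clock time). Its level was 149 ± 6.92 CPM at DRF ZT8 and 232.5 ± 9.90 CPM at DRF ZT20. Med1, the Mediator subunit that binds PPARs, peaked at ZT18.9 ± 0.689 and ZT7.36 ± 0.773 (adjusted p = 1.0e-06), within 2 h of Ppard and Rxra. Lpin1, a phosphatidate phosphatase that also coactivates PPARα, peaked at ZT16.9 ± 0.596 and ZT7.83 ± 2.07 (adjusted p = 0.000162), the latter without a called rhythm.

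Other partners of RXR in the table numbered 9, of which 6 (66.7%) differed at equal clock time and 3 (33.3%) at equal feeding time, against 56.3% and 27.5% of genes with at least 1 CPM, as all 9 have. Vdr, the vitamin D receptor, was near 1 CPM, with 2.77 ± 1.215 CPM at NRF ZT8 and 0.939 ± 0.142 CPM at DRF ZT12 (adjusted p = 6.99e-05 for the rhythm at equal clock time, limma). Thrb, a thyroid hormone receptor, peaked at ZT7.77 ± 1.60 and ZT16.4 ± 0.970 (adjusted p = 0.00821), the former without a called rhythm.

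Of 21 fatty acid oxidation genes that PPARs are known to drive, 16 (76.2%) differed in rhythm at equal clock time and 3 (14.3%) at equal feeding time, which compares with 36.0% and 14.9% of all genes and 56.3% and 27.5% of genes with at least 1 CPM. Cpt1a, which admits fatty acids to mitochondria, peaked at ZT7.60 ± 0.412 and ZT20.1 ± 0.710, within 2 h of the fitted Ppara peaks in both regimens. Of 19 adipocyte genes known to depend on PPARγ, 15 (78.9%) differed at equal clock time and 0 at equal feeding time, while Pparg itself was called in neither test with all libraries and in both without the pair. Acsl1, an acyl-CoA synthetase, had 4619 ± 551.3 CPM at NRF ZT12 and 1255 ± 259.9 CPM at DRF ZT12 (adjusted p = 1.52e-15 for the rhythm at equal clock time), and Slc27a1, a fatty acid transporter, 2100 ± 236.5 and 608 ± 143 CPM (1.81e-15). Of the adipocyte markers, 5 of 6 differed at equal clock time, but all of them except Lep are also in this PPARγ list.

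Of 16 LXR targets, 8 (50%) differed at equal clock time and 5 (31.2%) at equal feeding time, against 36.0% and 14.9% of all genes. Of genes with at least 1 CPM, as 14 of the 16 have, 56.3% and 27.5% did. Scd2, a fatty acid desaturase, had 217 ± 255 CPM at NRF ZT8 and 2194 ± 725.6 CPM at DRF ZT8 (adjusted p = 3.74e-12 for the rhythm), and its mean rose by 1.32 log2 units under DRF (3.26e-06). Mlxipl, which encodes the sugar-sensing factor ChREBP, peaked at ZT19.5 ± 0.471 and ZT11.95 ± 0.834 (adjusted p = 2.72e-08, and 0.000842 at equal feeding time). Scd2 peaked at ZT20.7 under NRF and ZT11.2 under DRF. The peaks of both genes lay away from those of Nr1h2 in both regimens and from that of Nr1h3 under NRF. Under DRF Nr1h3 had no called rhythm, and a link in timing was not tested. Of 13 genes of retinoid supply 3 (23.1%) and 2 (15.4%) were called, the former below the share of all genes. Dhrs3, a retinal reductase, had 158 ± 26.4 CPM at NRF ZT0 and 86.8 ± 15.97 CPM at DRF ZT0, and 138 ± 17.55 and 113 ± 13.5 CPM at ZT24. Its rhythm differed at equal clock time (adjusted p = 0.000222). Bco1, the enzyme that splits carotene, had group means from 0.0848 CPM at DRF ZT4 to 0.409 CPM at DRF ZT16 (adjusted p = 0.011 for the rhythm). Of 7 enzymes that make or clear sterol ligands, 5 (71.4%) and 4 (57.1%) were called. Dhcr7 and Cyp51, of cholesterol synthesis, peaked at ZT20.7 ± 0.404 and ZT20.0 ± 0.477 under NRF and at ZT10.4 ± 0.648 and ZT12.5 ± 1.43 under DRF, and their means rose by 0.53 and 0.99 log2 units.

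Clock genes were set beside the receptors as well. All 16 differed in rhythm at equal clock time and all 16 at equal feeding time, and the turned component was the larger in 5 of 16, against 7 of 8 receptors. All 16 were rhythmic under NRF and 4 under DRF, and their median amplitude was 1.64 log2 units under NRF and 0.35 under DRF, beside 0.22 and 0.19 for the receptors. Nr1d1, which encodes the repressor REV-ERBα, peaked at ZT8.20 under NRF, within 2 h of Ppara, Nr1h2 and Rxrb. Under DRF its rhythm was not called (adjusted p = 0.997, MetaCycle-type test). The comparison between clock genes and receptors was not tested.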

How the data were processed

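RNA of VAT was sequenced from 56 mice, a library per mouse, grouped by the regimen and time point in the sample labels. Per the labels, reads were aligned with HISAT2 2.0.5 to mm10 and counted with featureCounts 1.5.0-p3 by the authors, from poly(A) libraries of a kit that does not mark strand. The table that the authors deposited names its values TPM, but by their pattern they are a score: log2(CPM + 1) divided by exon length and scaled per library. The deposited score was converted back to whole reads with exon lengths of GENCODE M21 for 25031 genes and lengths taken from the values for 897 (Rxrb among them); 9 were too abundant to test, 2 were unresolved (Pcx and Scd1), and 99.9996% of values of at most 10000 reads were whole within 0.02. The library sizes that the values imply gave CPM. The plan had assumed another unit.

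Rhythms were tested on the deposited score with a MetaCycle-type test (JTK_CYCLE and Lomb-Scargle, joined through Fisher's method) in Python 3.11.15 with scipy 1.17.1. Means and rhythms were compared with limma 3.58.1 in R 4.3.3 on log2(CPM + 1), which understates changes of low genes, with an intensity trend. CircaCompare's model was fitted by least squares with Wald tests. All p-values were adjusted by Benjamini-Hochberg over all 25939 or 25937 genes, with a threshold of 0.05. Programs were tested on simulated data. The sources used here do not give which mice shared cages. The members, lists and tests were chosen with earlier results of these data known. Named genes were the members, in each of 8 pathway lists the 2 with the smallest adjusted p for the rhythm at equal clock time, and the gene most like each member; clock genes were named only beside members. Of these, 2 list genes are not reported here. Marker lists of 10 cell types were used: endothelial, progenitor, brown adipocyte, muscle, mesothelial, lymphocyte and liver markers had 1, 3, 1, 0, 2, 0 and 0 means called. Other tissues were not analysed here.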

Additional observations from a re-analysis of the deposited data

Results flagged for a closer look

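Of 112 receptor groups of 4 mice, 5 held a mouse whose gap to the nearest other exceeded Dixon's 95% critical value, beside the 1 in 20 that chance gives. Pparg had 299 CPM in DRF ZT12 replicate 4, against 242 to 251 CPM in the other mice of its group, and 165 CPM in NRF ZT4 replicate 4, against 228 to 233 CPM. Nr1h3 had 154 CPM in NRF ZT16 replicate 3, against 126 to 129 CPM. Rxra had 227 CPM in DRF ZT4 replicate 1, against 268 to 276 CPM. Rxrb had 54.7 CPM in NRF ZT12 replicate 1, against 45.2 to 46.0 CPM. None of the 5 was in the pair of DRF libraries that stood apart.

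Rhythms under DRF and NRF differed by limma's test of the difference at equal clock time for Ppara (adjusted p = 8.46e-11), Nr1h2 (4.62e-10), Rxrb (1.13e-06), Ppard (1.53e-06), Rxra (0.000727), Rxrg (0.00988) and Nr1h3 (0.0207). At equal feeding time they differed for Rxrg (adjusted p = 0.00095), Nr1h2 (0.0168), Rxrb (0.0384) and Ppara (0.0397).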

How the results depend on the processing

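The count of rhythmic receptors under DRF, 3, was 5 on log2(CPM + 1), 6 with limma, 1 without the ZT24 mice and 5 without the pair of DRF libraries (an alternative added after the data were seen), and 0 to 2 with a replicate number left out. The NRF count of 7 was 4 to 6 with a replicate number left out, lowest without number 2. The count of 2 mean differences was 5 when libraries were scaled to total reads, which moved the median over all genes by -0.04, and 0 to 2 with a replicate number left out. The count of 4 rhythm differences at equal feeding time was 0 to 4 with a replicate number left out, and of 20 receptor and time point pairs 13 to 20. The Rxrg mean difference of 0.03 changed sign to -0.016 with total reads and -0.012 without ZT24, ranged from -0.046 to 0.085 with a replicate number left out, and was not called under any of these. Counts for the rhythm at equal clock time, the phase shift and the 12-h rhythms moved by no more than 1.5 times under the alternatives run. With the replicate number as a block the counts were 2 means, 7 rhythms at equal clock time, 4 at equal feeding time and 21 pairs. The numbers share no stated source. The median correlation of deviations from the group mean was 0.0334 between same-numbered mice of different groups and -0.0103 between differently numbered ones. Of 28 same-numbered pairs at a single time point 8 correlated above 0.1, with a range of -0.303 to 0.338. Whether the numbers pair the mice was not tested. Causes of these changes were not tested. Ppara had 90 to 574 reads per library, the fewest of the 8.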
